A study of Danio rerio with 12 samples.

Results

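Translation factors and cytosolic tRNA synthetases were followed as 1 set of genes in zebrafish liver. The set was chosen by symbol alone: every gene whose current zebrafish symbol begins with eif or eef and a digit, plus the cytosolic aminoacyl-tRNA synthetases (a letter followed by ars1, with or without a copy letter, and farsa, farsb and eprs1). The arrays measured 87 such genes with 173 probes, out of 6684 named genes, and these comprised 50 initiation factors, 10 elongation factors, 15 synthetases and 12 regulators. Of the genes that the rule takes from the current gene table, 18 had no probe in the data, among them nars1, vars1, eif1, eif3f and the stress kinases eif2ak2 and eif2ak4. The fish were wild-type AB zebrafish fed diets with 0% or 25% maize for 28 days. The diets were of similar energy content, the 0% maize diet held wheat in place of the maize, and all fish also received Artemia, a brine shrimp. Livers of the 10 fish of 1 sex in a replicate were pooled, so that a value describes a pool and not a fish, and males and females of 1 diet with the same replicate number came from 1 tank. The arrays held 12 pools, 3 of each sex on each diet, and 12 two-colour arrays compared them in a closed loop in which every pool appeared once with each dye. The series' design text gives 4 biological replicates per diet, while the array labels name 3 pools for each sex and diet, with numbers from 1 to 4, and n = 3 refers to these pools.

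Translation starts when the small ribosomal subunit, loaded with initiator tRNA by eIF2 and held by eIF1, eIF1A, eIF3 and eIF5, is brought to the mRNA cap by eIF4E, the scaffold eIF4G and the helicase eIF4A. The guanine nucleotide exchange factor eIF2B recharges eIF2, and phosphorylation of eIF2 by the eIF2AK kinases blocks that step under stress. The eIF4E-binding proteins (eIF4EBP) hold eIF4E away from eIF4G until the TOR kinase phosphorylates them. Elongation factor eEF1A delivers charged tRNA, the complex of eEF1B, eEF1D and eEF1G recharges eEF1A, and eEF2 moves the ribosome along the mRNA. Aminoacyl-tRNA synthetases charge each tRNA with its amino acid, and several of them sit together in the multi-synthetase complex. Liver is among the tissues with the highest protein output, since it makes the plasma proteins and, in laying females, the yolk precursor vitellogenin.

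All values are log2 ratios. A level is that of a pool relative to the mean of the 12 pools, solved from the loop, and a change is the difference between groups from a limma fit over all genes, with p-values adjusted by Benjamini-Hochberg over the 6684 genes and a threshold of 0.05. The files do not state the log base, which was taken as 2, or the direction of the ratio. Cy5 over Cy3 is the likely direction, because 470 of 470 values of vitellogenin probes on the 10 arrays with a female and a male pool had the sign it requires, and every direction below rests on it. Two-colour ratios give no absolute level, so no gene is ranked against another by abundance, and less RNA per cell cannot be told apart from fewer cells of a type. The liver label was checked with marker genes. The pools also carried transcripts of ovary, exocrine pancreas, erythrocytes and intestine, and these moved with sex, those of intestine on 0% maize only. The mean of 6 intestine markers was -1.70, -1.64 and -0.73 in 0% maize females and 1.19, 1.46 and 0.74 in 0% maize males. On 25% maize the sexes overlapped (0.20, -1.07 and 0.07 in females, 0.12, 0.14 and 1.22 in males). The mean of 6 endocrine pancreas markers was 0.97 in the 25% maize female pool of replicate 4, against -0.86 and -0.90 in replicates 2 and 3. In 25% maize males it was 1.44 in replicate 3, against 0.51 and 0.58 in replicates 1 and 2. On 0% maize it was -1.16 to -0.19 in females and -0.60 to 0.62 in males. The part of intestine and endocrine pancreas transcripts in the diet contrast was not tested. The 14 measured ovary and oocyte markers were all higher in female pools (median 3.56), and all 13 exocrine pancreas markers (median -1.48) and all 6 erythrocyte markers (median -1.86) were lower. Of the 13 hepatocyte markers, 10 were lower and 2 higher in females, beside 32.0% and 38.3% of all genes. Among female pools the mean ovary marker level was 2.36, 1.05 and 2.35 on 0% maize (replicates 1, 2 and 3) and 1.29, 1.74 and 1.29 on 25% maize (replicates 2, 3 and 4), beside -1.94 to -1.11 in males. The 0% maize female pool of replicate 2 and the 25% maize male pool of replicate 2 were thus the nearest to each other of any female and male pool by these markers. The counts of calls for the diets and for the sexes are given without each of them as well. These pools shared 1 array, whose median absolute log2 ratio of 0.31 was the lowest of the arrays with both sexes. The part of that array in their nearness was not tested. Replicates of a group were separate pools from separate tanks, and p-values measure the spread between pools. Tanks with both sexes on the arrays were replicates 1 and 3 on 0% maize and replicates 2 and 3 on 25% maize. The fit put the tank variance ratio at 0, so the diet contrast independent of sex treats the pools of such a tank as independent. Its p-values thus do not measure the spread between tanks.

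Independent of sex, 8 of the 87 genes differed between the diets, 7 lower and 1 higher on 25% maize. The lower genes were the methionyl- and glutaminyl-tRNA synthetases mars1 and qars1, 3 genes of the cap-binding complex (eif4e1c, eif4g1a and eif4a1a), the eIF3 subunit gene eif3jb and the cap-binding inhibitor eif4ebp1, and the higher gene was eif4e3, an unusual member of the eIF4E family. This was 8.05% of the set lower and 1.15% higher, beside 2.80% lower and 2.14% higher over all genes (4.94% in either direction). The median change of the 87 genes was -0.12, with 62 below 0, and that of all genes was -0.01. At an unadjusted p under 0.05 there were 27 genes, 31% of the set and 17.2% of all genes. The 25% maize pools lay below all 0% maize pools of their sex in both sexes for 6 genes of the set (6.9%, and 1.94% of all genes) and above them for 1 (1.15%, and 1.27%). Each of the 8 genes kept its direction in all 21 alternative settings, 12 of which left out a pool, but the number past the threshold did not hold as well. It was 2 without the 25% maize female pool of replicate 4 or the 25% maize male pool of replicate 3, 3 without the replicate 1 pool of 0% maize of either sex, 4 without the 25% maize female pool of replicate 2 or the 0% maize male pool of replicate 3, 5 without the 0% maize male pool of replicate 4 or the 25% maize male pool of replicate 1, and 13 without the 0% maize female pool of replicate 2, which has the low ovary markers. Without the 25% maize male pool of replicate 2 it was 12, 1 higher and 11 lower. It was also 0 where arrays were scaled to 1 spread or where the variance between pools was placed on the tanks. Over all genes these settings also gave 0 calls. The fits with 2 or 3 calls each lack 1 of the arrays that compared pools of the same sex. The part of the missing array in the lower count was not tested. Apart from 1 array within each sex, arrays paired 25% maize females with 0% maize males, or 0% maize females with 25% maize males. On these paired arrays the diet contrast compares the female to male ratios of the sets. The median absolute log2 ratio was 0.35 to 0.45 in the first set and 0.64, 0.41, 0.31, 0.53 and 0.67 in the second. For genes that differ by sex, these arrays cannot tell a diet effect apart from a wider spread of ratios in 1 set. This limit covers every gene called for the diets except eif3jb. The genes mars1, qars1, eif4e1c, eif4g1a, eif4a1a and eif4ebp1 were higher in females and fell, and eif4e3 was lower in females and rose. Wider ratios in the second set would give the same directions, and their part in these changes was not tested. The array within each sex compared the diets directly, 1 pool of each, with the 25% maize pool in Cy5. In females and males it gave -0.71 and -0.77 for mars1, -0.86 and -0.43 for qars1, and -0.76 and -0.78 for eif4e1c. For eif4g1a it gave -0.31 and -0.35, for eif4a1a -0.12 and -0.61, and for eif4ebp1 -0.38 and -0.36. The gene eif4e3 was at 0.52 and 0.27. These values include any dye effect and were not tested.

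**Figure D1:**
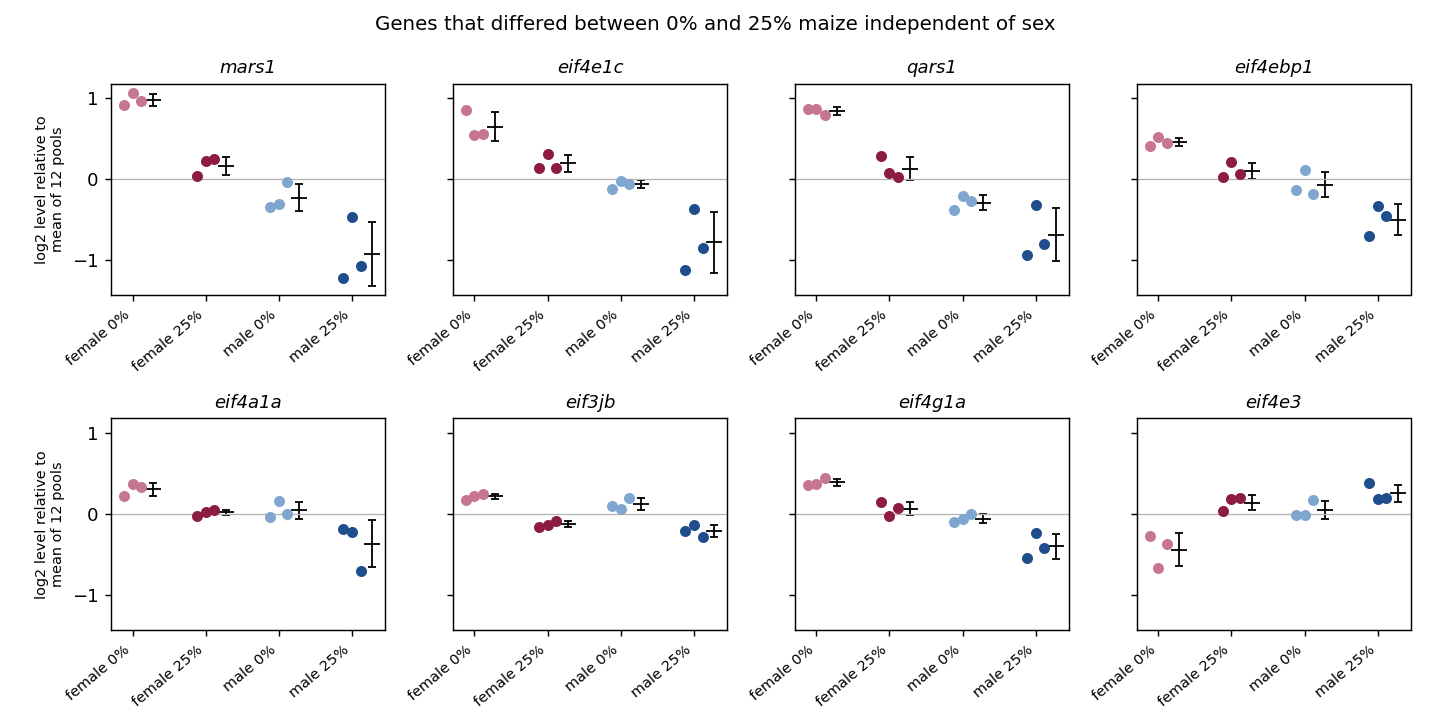
Levels of the 8 genes that differed between the diets, 1 panel a gene. Points are the 3 pools of each sex and diet on the log2 scale relative to the mean of the 12 pools, and the bar beside them is the group mean with its SD. The 25% maize pools lie below all 0% maize pools of the same sex for 6 of the 7 lower genes, qars1 being the exception in males, and above them for eif4e3.

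The largest fall was that of mars1, which charges tRNA with methionine and so also supplies the initiator tRNA. Its level was 0.92, 1.06 and 0.97 in the 0% maize female pools and 0.04, 0.22 and 0.24 in the 25% maize female pools. In males it was -0.34, -0.30 and -0.04 on 0% maize and -1.21, -0.47 and -1.08 on 25% maize. No 25% maize pool reached a 0% maize pool of its sex. The change was -0.75 (standard error 0.11, adjusted p = 0.00514 from limma), 1.69-fold lower, and it was alike in females (-0.78) and males (-0.73). It passed the threshold whichever of the 12 pools was left out, but it was measured by 1 probe.

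The glutaminyl-tRNA synthetase qars1 was at 0.87, 0.87 and 0.79 in 0% maize females and at 0.29, 0.07 and 0.02 in 25% maize females. Its levels in males were -0.38, -0.21 and -0.27 on 0% maize and -0.94, -0.31 and -0.80 on 25% maize. The female groups stood apart, while in males the 25% maize pool of replicate 2 lay within the 0% maize pools. Its change was -0.56 (standard error 0.10, adjusted p = 0.00963), it passed in 9 of the 12 fits with a pool left out, and its 3 probes gave -0.78 to -0.21, of which 2 passed singly (3.73% of all probes did).

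Both genes belong to the multi-synthetase complex, of which 6 members were measured. The complex had a median change of -0.27, with 5 of 6 below 0. The 4 members that did not pass were eprs1, the fused glutamyl- and prolyl-tRNA synthetase, at -0.32, rars1 (arginine) at -0.22, kars1 (lysine) at -0.21 and iars1 (isoleucine) at 0.10. The mean of the 6 genes in 0% and 25% maize females was 0.82, 1.00 and 0.60 against 0.37, 0.12 and 0.33. The complex as a whole thus had no female pool of 25% maize as high as a 0% maize pool, whereas in males the means overlapped (-0.60 to -0.42 and -0.79 to -0.36). The same female pools stood apart by diet in the mean of the 6 vitellogenin genes (2.57 to 3.14 on 0% maize and 2.28 to 2.36 on 25% maize) and of the 13 hepatocyte markers (-0.86 to -0.63 and -0.54 to -0.47), and their part in the synthetase values was not tested.

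None of the 9 measured synthetases outside the complex passed the threshold for the diets (4.94% of all genes did). Their median was -0.17 and 8 of 9 were below 0. The nearest was tars1, which charges tRNA with threonine, at -0.44 (adjusted p = 0.0668), and it was followed by farsa, a subunit of the phenylalanyl-tRNA synthetase, at -0.25. The other subunit gene, farsb, was at -0.03, and wars1, for tryptophan, at 0.01. The scaffold genes of the complex, aimp1a and aimp2, were at 0.03 and -0.09, and of the 5 measured mitochondrial synthetases none passed (median -0.04).

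Among the 17 genes classed as eIF4 by symbol, 3 fell and 1 rose on 25% maize, beside 2.80% and 2.14% of all genes. Of the 17, 15 were below 0 (median -0.21). The core eIF4 factors recruit mRNA to the ribosome, but the class was set by symbol and not by that role. The cap-binding gene eif4e1c was at 0.85, 0.54 and 0.55 in 0% maize females and 0.14, 0.31 and 0.14 in 25% maize females. In males it was at -0.12, -0.02 and -0.06 on 0% maize and at -1.12, -0.37 and -0.85 on 25% maize. The diets did not overlap in either sex, and the change was -0.59 (standard error 0.11, adjusted p = 0.0146), with all 3 probes past the threshold. It lost the call in 7 of the 12 fits with a pool left out, since 5 passed.

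The scaffold gene eif4g1a was at 0.36, 0.37 and 0.44 against 0.15, -0.02 and 0.07 in females on 0% and 25% maize, and at -0.10, -0.06 and -0.00 against -0.54, -0.23 and -0.42 in males. Its change was -0.33 (standard error 0.06, adjusted p = 0.0145), over 4 probes that ranged from -0.46 to -0.03, 2 of which passed, and it was past the threshold in 4 of the 12 fits with a pool left out. The RNA helicase gene eif4a1a was at 0.22, 0.37 and 0.33 against -0.02, 0.03 and 0.05 in females and at -0.04, 0.16 and 0.00 against -0.19, -0.22 and -0.70 in males. Both genes were lower on 25% maize in every pool of either sex than in any 0% maize pool of that sex. The change of eif4a1a was -0.35 (standard error 0.09, adjusted p = 0.0396), neither of its 2 probes passed alone, and it was past the threshold in 2 of the 12 fits with a pool left out.

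The exception in this class was eif4e3. In females it was at -0.27, -0.67 and -0.37 on 0% maize and at 0.03, 0.19 and 0.19 on 25% maize. In males it was at -0.01, -0.02 and 0.17 on 0% maize and at 0.38, 0.19 and 0.20 on 25% maize, so that the groups did not overlap but nearly touched. It rose by 0.39 (standard error 0.08, adjusted p = 0.0144) on 1 probe, and it passed in 8 of the 12 fits with a pool left out. In mammals eIF4E3 binds the cap in an atypical manner and competes with eIF4E.

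The other genes of the zebrafish eIF4E family did not pass. The classical eif4ea was at -0.23 and eif4eb at -0.27, the oocyte form eif4e1b at 0.05 and the repressive cap-binding gene eif4e2 at -0.01. The same held for the other paralogs of genes that did: eif4a1b was at -0.08 and eif4a2 at -0.31, and the eif4g2 copies, whose protein drives cap-independent translation, were at -0.45 (eif4g2a) and -0.23 (eif4g2b). The helicase cofactors eif4ba, eif4bb and eif4h lay between -0.21 and -0.12. Of the poly(A)-binding proteins and partners, which join the other end of the mRNA to eIF4G, 0 of 4 measured genes passed (4.94% of all genes did).

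Of the 14 genes for subunits of eIF3, the largest initiation factor, only eif3jb passed for the diets (4.94% of all genes did). This gene encodes the loosely bound j subunit. It had a level of 0.18, 0.22 and 0.25 in 0% maize females and -0.16, -0.14 and -0.08 in 25% maize females. Males had nearly the same levels, 0.10, 0.06 and 0.20 on 0% maize and -0.21, -0.14 and -0.28 on 25% maize. The 6 pools of each diet did not overlap even across the sexes, and the sexes did not differ past the threshold (0.09, adjusted p = 0.179). The change by diet was -0.34 (standard error 0.05, adjusted p = 0.00681), all 3 probes passed, and so did every fit with a pool left out.

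Its paralog eif3ja had a change of -0.24 (adjusted p = 0.0576), with levels of 0.20, 0.22 and 0.41 against -0.01, -0.03 and -0.14 in females and overlapping levels in males. The other 12 eIF3 genes, which encode the core and the stably bound subunits, ranged from -0.11 to 0.16, and 9 of the 14 genes were above 0. The median of the complex was 0.03.

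Genes of the other initiation steps gave no call for the diets, beside 4.94% of all genes. The 3 genes of eIF1 and eIF1A, which hold the scanning ribosome open, were at -0.45 (eif1axa), -0.35 (eif1b) and -0.04 (eif1axb). The genes classed with eIF2 by symbol, which include eif2a and eif2d, ranged from -0.12 to 0.03. The 5 subunit genes of eIF2B ranged from -0.19 (eif2b4) to 0.01 (eif2b3). The GTPase-activating eif5 was at -0.13 and the subunit-joining GTPase eif5b at -0.23 (adjusted p = 0.0655). The gene eif6, whose protein keeps the large ribosomal subunit apart from the small one and takes part in its maturation, was at -0.41 (adjusted p = 0.0622), with 0.54, 0.51 and 0.30 against -0.27, -0.13 and 0.27 in females and overlapping groups in males. The eIF5A genes, whose proteins carry hypusine and relieve stalled ribosomes, were at 0.13 (eif5a) and -0.14 (eif5a2).

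Elongation factors showed no difference between the diets past the threshold (4.94% of all genes did), and their median was 0.05. Genes for eEF1A lay between -0.03 and 0.11 in change, and the exchange complex genes eef1b2, eef1db and eef1g between 0.02 and 0.07. The only one with an unadjusted p under 0.05 was the eEF2 gene eef2a.1 at -0.35 (adjusted p = 0.0978), with levels of 0.65, 0.40 and 0.71 against -0.14, -0.14 and 0.30 in females and overlapping levels in males. The eEF2 gene eef2b was at -0.02 and eef2l2 at -0.24. The termination and recycling factors, listed separately, held 1 call of 8, abce1, the ATPase that splits the terminated ribosome, at -0.41 (adjusted p = 0.0315), and the release factor gene etf1b was at -0.33 (adjusted p = 0.0673).

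**Figure D2:**
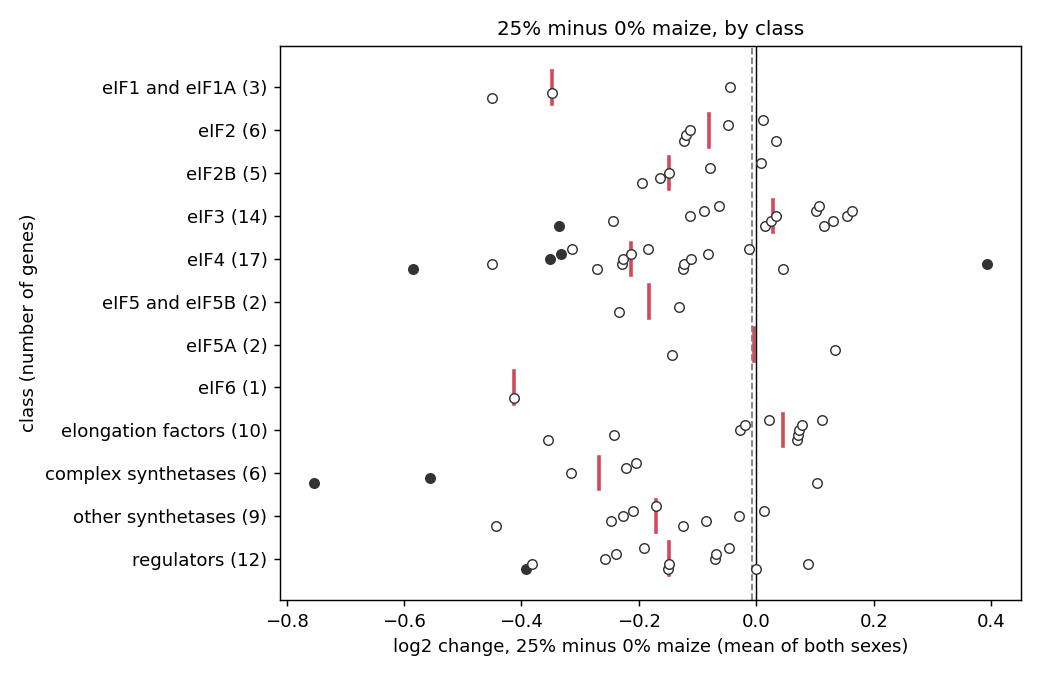
Change from 0% to 25% maize, as the mean of both sexes, for each of the 87 genes by class. Filled points passed the threshold of 0.05, open points did not, red bars are class medians and the dashed line is the median of all 6684 genes, and points are offset vertically for legibility. The filled points lie below 0 except for eif4e3 at 0.39, and the class medians run from -0.41 for eIF6 to 0.05 for the elongation factors.

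Among the 12 regulators, 1 fell, beside 2.80% of all genes. This was eif4ebp1, the inhibitor that binds eIF4E and that TOR releases. Its level was 0.42, 0.52 and 0.44 in 0% maize females against 0.03, 0.22 and 0.07 in 25% maize females, and -0.14, 0.11 and -0.18 in 0% maize males against -0.70, -0.33 and -0.46 in 25% maize males. The groups did not overlap in either sex. Its change was -0.39 (standard error 0.08, adjusted p = 0.0156), 1 of 2 probes passed, and it was past the threshold in 5 of the 12 fits with a pool left out. The other eIF4E-binding genes were at 0.00 (eif4ebp2), -0.38 (eif4ebp3) and -0.15 (eif4ebp3l), and none passed. Neither did the measured eIF2 kinase genes eif2ak1, the haem-regulated kinase, at -0.15 and eif2ak3, the kinase of the endoplasmic reticulum (PERK), at -0.07, or the eEF2 kinase gene eef2k at -0.24.

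Genes around the set were read from lists, and over all genes 2.80% were lower and 2.14% higher on 25% maize. Of 23 measured integrated stress response genes, which act up- and downstream of eIF2 phosphorylation, 3 fell and 1 rose on 25% maize. The transcription factor gene atf4a fell by 0.34 on the log2 scale (adjusted p = 0.0168), and the transsulfuration genes cbsb and cth, which are also hepatic enzymes of methionine breakdown, fell by 0.99 and 0.87. The gene that rose was ppp1r15a, whose protein directs the dephosphorylation of eIF2, at 0.68 (adjusted p = 0.0087). Of 19 TOR pathway genes, 2 fell and 1 rose: larp1, which binds the 5' ends of mRNAs for ribosomal proteins and elongation factors, was at -0.61 (adjusted p = 0.00251), the kinase gene rps6kb1b at -0.32 and depdc5, a subunit of an inhibitor of TOR, at 0.34. Of 13 genes that modify or support tRNA, xpot, which carries tRNA out of the nucleus, was at -0.64 (adjusted p = 0.00819), and all 13 were below 0. None of the 5 hypusine and diphthamide enzymes and none of the 6 mitochondrial translation factors passed. Cytosolic ribosomal protein genes had a median of -0.0002 with 0 of 76 called by limma and 1 at an unadjusted p under 0.05, and ribosome biogenesis genes one of -0.40 with 27 of 33 lower.

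With all pools in the fit, the set held no call for the diets within 1 sex. In females 0 of 87 genes passed (1.32% of all genes did). At an unadjusted p under 0.05 there were 20 genes, 23% of the set and 15.2% of all genes. The smallest adjusted p was 0.0611, for eif4e3 at 0.56, followed by qars1 at -0.71 (0.0645) and mars1 at -0.78 (0.0704). In males 0 passed, beside 0.0299% of all genes. At an unadjusted p under 0.05 there were 16 genes, 18.4% of the set and 10.8% of all genes, and the smallest adjusted p was 0.155 for mars1 at -0.73. The median change was -0.12 in females and -0.09 in males. The contrast within a sex was the weaker one by design. It rests on 3 pools of each diet, while the mean of both sexes averages over the pools of both. In addition, 10 of the 12 arrays compared a female with a male pool, and each sex had 1 array of its own. The standard error for mars1 was 0.19 within a sex, against 0.11 for the mean of both sexes. Scaling the arrays gave 3 calls in females and 18 in males, beside 10.7% and 24% of all genes. Without the 0% maize female pool of replicate 2 there were 2 calls in females, 1 higher and 1 lower (5.58% of all genes). Leaving out the 25% maize male pool of replicate 2 gave 2 calls in females and 1 in males, all lower. Of all genes that fit called 1.78% and 0.165%. Males also had 1 lower call in the fit without 0% maize female replicate 1 and in that without 25% maize female replicate 4. These fits called 0.165% and 0.12% of all genes.

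The difference between the diet effects of the sexes was also not past the threshold for any gene of the set (0 of 87, and 0% of all genes, by limma). At an unadjusted p under 0.05 there were 3 genes, 3.45% of the set and 8.95% of all genes. The smallest adjusted p was 0.321, for eif4eb, one of the classical cap-binding genes. Its level was -0.12, -0.15 and -0.54 in 0% maize females and 0.47, 0.06 and -0.29 in 25% maize females, while in males it was 0.92, 0.54 and 0.17 on 0% maize and -0.20, -0.21 and -0.64 on 25% maize. The male groups stood apart and the female groups overlapped. The change was 0.37 in females and -0.91 in males, and the difference of 1.29 had a standard error of 0.40. Only eif3d, an eIF3 subunit gene whose protein can bind the cap of some mRNAs, had diets that did not overlap in opposite directions in the sexes (2.39% of all genes did): 0.17, 0.09 and 0.19 against 0.27, 0.43 and 0.23 in females, and -0.17, -0.11 and -0.22 against -0.39, -0.25 and -0.25 in males. Its difference between the sexes was 0.25 with an adjusted p of 0.712.

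Sex had a far wider reach in the set than diet. Female pools were higher than male pools for 64 of the 87 genes and lower for 5, that is 73.6% and 5.75% of the set, beside 38.3% and 32.0% of all genes (70.3% in either direction). The median difference was 0.47, against 0.05 for all genes. For 48 genes every female pool was above every male pool of the same diet on both diets (55.2% of the set and 25.4% of all genes), and for 2 genes every female pool was below (2.3% and 19.4%). The highest of the 4 group means was that of 0% maize females for 58 of the 87 genes (66.7%, and 36.8% of all genes), and the lowest was that of 25% maize males for 60 (69.0%, and 27.5%). These groups were paired with each other on arrays that included those with the widest ratios (median absolute log2 ratio 0.64, 0.53 and 0.67). The part of that spread in this order was not tested. On 0% maize 52 genes were higher and 5 lower in females (31.2% and 25.8% of all genes), and on 25% maize 50 were higher and 1 lower (23.4% and 16.5%). The count of 69 calls was 68 without either of the pools of replicate 2 described above (0% maize females and 25% maize males) and 63 to 69 over all left-out pools. The part that ovary, pancreas and blood transcripts have in these differences was not tested, beyond the pool values given with the genes.

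**Figure D3:**
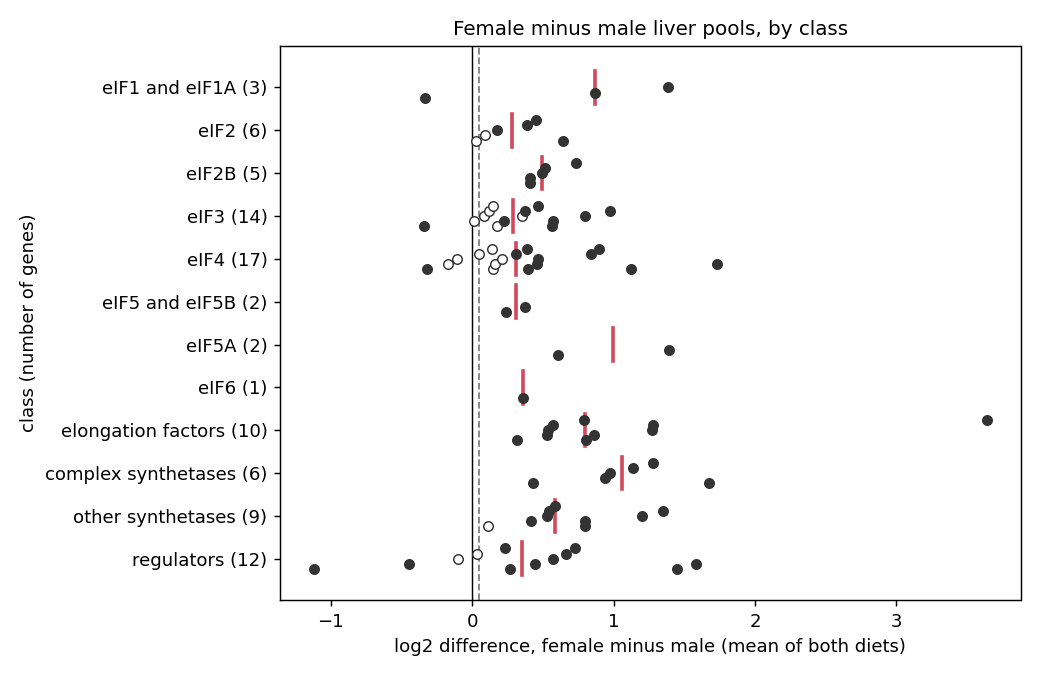
Female minus male difference, as the mean of both diets, for each of the 87 genes by class. Filled points passed the threshold of 0.05, open points did not, red bars are class medians and the dashed line is the median of all 6684 genes, and points are offset vertically for legibility. All 10 elongation factors and 14 of 15 synthetases are higher in females (38.3% of all genes are), with eef1a1l3 at 3.64 farthest from 0.

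All 10 elongation factors were higher in females (38.3% of all genes were), by 0.32 (eef1db) to 3.64 (eef1a1l3), with a median of 0.80. The gene eef1g encodes a subunit of the complex that reloads eEF1A. It was at 0.56, 0.58 and 0.71 in 0% maize females and 0.43, 0.72 and 0.83 in 25% maize females. In the 6 male pools it was between -0.77 and -0.53. The difference was 1.27 (adjusted p = 3.57e-07), and eef1b2 of the same complex differed by 1.28. The eEF2 genes eef2a.1, eef2b and eef2l2 differed by 0.57, 0.80 and 0.86. Copies of eEF1A are alike in sequence and their probes can share signal, so that the split among eef1a1b (0.79), eef1a1l1 (0.54) and eef1a1l2 (0.53) is uncertain. Cytosolic ribosomal protein genes were higher in females too, 71 of 76 with a median of 0.70.

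Of the 15 synthetases, 14 were higher in females (38.3% of all genes were), and yars1, for tyrosine, did not pass (0.11, adjusted p = 0.146). The histidine gene hars was measured but is not counted among the 15, because its symbol lacks the 1 that the rule asks for. By limma it did not pass for sex (0.19, adjusted p = 0.109) or diet (-0.18, adjusted p = 0.422). The members of the multi-synthetase complex had a median of 1.06 and the others one of 0.59. The largest difference was that of iars1, at 1.04, 1.31 and 0.56 in 0% maize females, 0.40, 0.83 and 1.01 in 25% maize females, -1.28, -1.17 and -0.76 in 0% maize males and -0.77, -0.46 and -0.71 in 25% maize males. Every male pool was below every female pool, and the difference was 1.68 (standard error 0.13, adjusted p = 1.72e-06), or 3.20-fold. It was followed by gars1 (glycine) at 1.35, eprs1 at 1.28, wars1 at 1.20 and mars1 at 1.14. Of the 13 genes that modify or support tRNA, 12 were higher in females, led by ctu1, which thiolates tRNA, at 1.19. The mitochondrial synthetases were higher for 4 of 5 (median 0.29).

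Of the 50 initiation factors, 32 were higher and 3 lower in females, beside 38.3% and 32.0% of all genes, with a median of 0.38. The 5 eIF2B genes were all higher, by 0.41 to 0.73. The hypusine-bearing factor gene eif5a2 had the smallest p of the set: 1.01, 0.75 and 0.80 in 0% maize females, 0.65, 0.35 and 0.63 in 25% maize females, and -0.77 to -0.59 in all male pools, with a difference of 1.39 (standard error 0.08, adjusted p = 1.42e-07). The paralog eif5a differed by 0.61. The eIF1A copies went opposite ways, eif1axa being higher by 1.39 and eif1axb lower (-0.33, adjusted p = 0.00690), while of the eIF3h copies eif3hb was lower (-0.34, adjusted p = 0.0300) and eif3ha did not pass (0.12). Among eIF3 genes, 7 of 14 were higher, led by eif3s6ip (the l subunit) at 0.98 and eif3i at 0.80, and eif3s10, the large a subunit, was at 0.02. The third lower gene was eif4e3 at -0.32, whose female levels on 0% maize were those given above. Its female to male difference was -0.48 on 0% maize (adjusted p = 0.00798) and -0.15 on 25% maize (adjusted p = 0.346), and the difference between these, which is that of the diet effects, did not pass.

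Of the 12 regulators, 8 were higher and 2 lower in females, beside 38.3% and 32.0% of all genes. The lysine methyltransferase gene eef1akmt2, whose protein modifies eEF1A, was the lowest in females of the set, at -0.51, -0.15 and -0.84 on 0% maize and -0.85, -0.67 and -0.22 on 25% maize, beside 0.33 to 0.99 in males. The difference was -1.12 (adjusted p = 2.52e-05). The eIF4E-binding genes split: eif4ebp3 was higher in females by 1.58, eif4ebp1 by 0.57 and eif4ebp3l by 0.27, while eif4ebp2 was lower (-0.44, adjusted p = 0.00338). The eIF2 kinase genes eif2ak1 and eif2ak3 were higher by 0.73 and 0.67. Probes of 1 gene disagreed in sign between the sexes for 7 of the 47 genes with several probes, and for eif4h, a helicase cofactor, both probes passed in opposite directions (-0.49 and 0.77, where 69.5% of all probes passed), so that its mean of 0.14 describes neither.

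**Figure D4:**
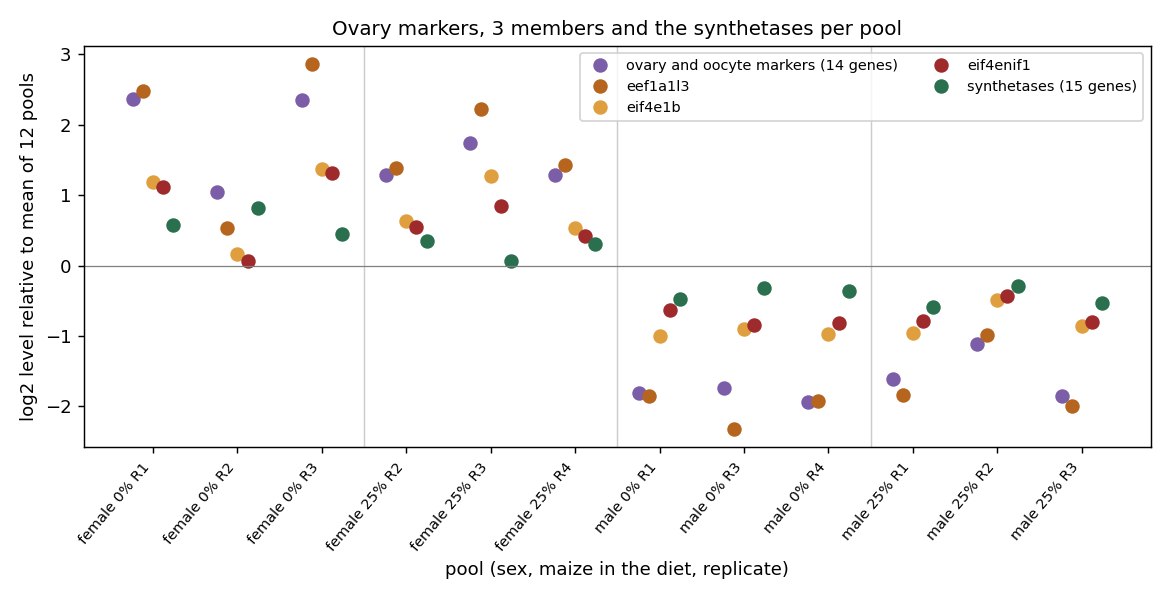
Level in each pool of the mean of 14 ovary and oocyte markers, of eef1a1l3, eif4e1b and eif4enif1, and of the mean of 15 synthetases, on the log2 scale relative to the mean of the 12 pools. Points of 1 pool are offset sideways for legibility. In the 0% maize female pool of replicate 2 the ovary markers drop to 1.05 and the 3 genes to 0.53, 0.17 and 0.07, and the synthetases stand at 0.82, their highest.

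The female pools differed among themselves in 2 ways. The genes eef1a1l3, eif4e1b and eif4enif1 were high and low in the same pools as the ovary markers. In zebrafish eif4e1b is known from ovary, and the eIF4E transporter encoded by eif4enif1 keeps mRNA silent in oocytes of other vertebrates. The eEF1A gene eef1a1l3 was at 2.49, 0.53 and 2.86 in 0% maize females, 1.38, 2.23 and 1.43 in 25% maize females and -2.32 to -0.98 in males. The gene eif4e1b was at 1.19, 0.17 and 1.38, then at 0.63, 1.27 and 0.53, and at -0.48 or below in males, and eif4enif1 was at 1.11, 0.07 and 1.32, then at 0.54, 0.85 and 0.42, and at -0.84 to -0.44 in males. For all 3 the 0% maize female pool of replicate 2 was the lowest female pool and the 25% maize male pool of replicate 2 the highest male pool, as for the ovary markers. Their female to male differences were 3.64 (12.5-fold), 1.73 and 1.45, and the oocyte-type poly(A)-binding gene pabpc1l differed by 2.25. None of them differed between the diets.

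The synthetases had another order. Their mean was 0.58, 0.82 and 0.44 in 0% maize females and 0.35, 0.06 and 0.31 in 25% maize females, so that the pool lowest in ovary markers was the highest of all 12, and the 25% maize female pool with the highest ovary markers was the lowest female pool. That 0% maize female pool of replicate 2 also had the highest mean of the 9 measured leukocyte markers, 0.69, against -0.45 and -0.61 in the other 0% maize female pools, and the part of these cells in its values was not tested. Males ran from -0.47 to -0.31 on 0% maize and from -0.59 to -0.30 on 25% maize. The threonine gene tars1 was at 1.03, aars1 (alanine) and kars1 were likewise highest, and iars1 was at 1.31 in the 0% maize female pool of replicate 2.

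**Figure D5:**
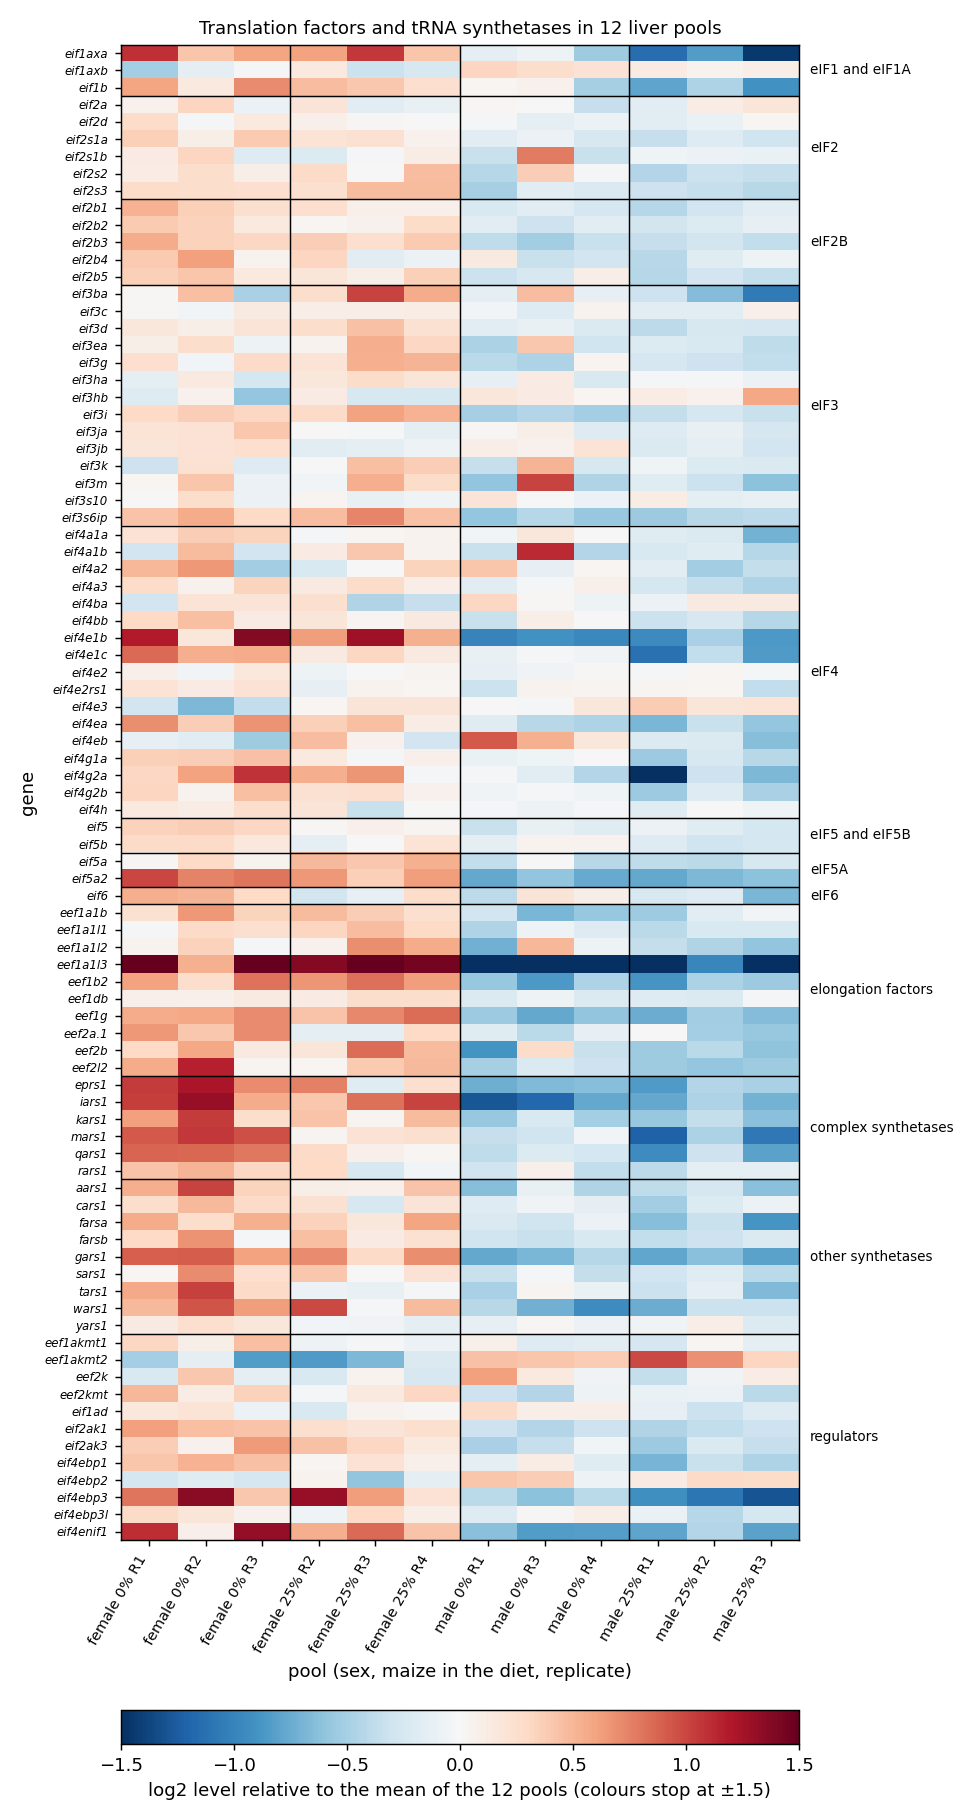
Levels of all 87 genes in the 12 pools on the log2 scale relative to the mean of the pools, ordered by class. Rows are genes, columns are pools grouped by sex and diet, red is above and blue below the mean, and colours stop at ±1.5. The female columns are mostly red, the 0% maize male pool of replicate 3 has red cells in eIF2, eIF3 and eIF4 that no other male pool shares, and mars1 is lower in the 25% maize pools of both sexes.

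Among the males, a single pool stood apart for a group of initiation and elongation factors. In the 0% maize male pool of replicate 3, 8 genes were more than 0.5 above both other pools of that group (9.20% of the set, and 3.61% of all genes). They were eif3m, eif3k, eif3ea and eif3ba of eIF3, the helicase gene eif4a1b, the eIF2 alpha subunit gene eif2s1b, eef2b and eef1a1l2. The gene eif3m was at 1.02 in this pool and at -0.59 and -0.45 in the others, eif4a1b at 1.12 against -0.33 and -0.44, and eif2s1b at 0.78 against -0.33 and -0.33. In that pool the mean erythrocyte marker level was 1.15, against -0.03 and 0.80 in replicates 1 and 4, and the exocrine pancreas level was 0.23, against 0.95 and 1.26. The leukocyte level of the pool was 0.28, against -0.07 and -0.01, and its intestine level was 1.46, against 1.19 and 0.74. The 25% maize male pools had erythrocyte levels of 1.38, 0.54 and 1.18, with eif3m at -0.19, -0.32 and -0.62. The part of these cell types in the values of the 8 genes was not tested. Female pools also differed in these genes. Among 0% maize females all 8 were highest in replicate 2, with eif3m at 0.42 against 0.03 and -0.08, and eif4a1b at 0.48 against -0.28 and -0.29. Among 25% maize females all but eif2s1b were highest in replicate 3, with eif3m at 0.55 against -0.04 and 0.28. Over all pools the sexes did not differ past the threshold for eif3m (0.36, adjusted p = 0.197), eif4a1b (0.16, adjusted p = 0.560) or eif2s1b (0.03, adjusted p = 0.892). Without the 0% maize male pool of replicate 3 the female minus male differences were 0.60, 0.41 and 0.21. They are given with no test because the genes were picked for their level in that pool.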

How the data were processed

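Liver RNA of 12 pools was hybridised in pairs to 12 two-colour Agilent arrays. The authors scanned and quantified the spots with GenePix and used limma for the processing, per the labels. The deposited values, read as log2 ratios, number 1 for each of 12275 probes on each array. How background, normalization and the probe filter were handled is not given in the sources used here, nor is the version of limma. Symbols were updated through RefSeq's GRCz12tu table by accession (9007 probes), current symbol (976) or synonym (317), 7 were kept, and 1968 probes had no symbol. The symbol changed for 49 of the 173 probes used.

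A gene took the mean of its probes. The model, in limma 3.58.1 under R 4.3.3, had terms for each sex and diet and the dye, after whitening for shared pools and tanks (variance ratios 2.91 and 0 by restricted maximum likelihood), with 8 residual degrees of freedom and Benjamini-Hochberg adjustment over 6684 genes. The fit was run on data simulated from its own model and variance ratios, which checks the code but not whether that model holds for these arrays. Alternatives changed the treatment of pools, tanks, replicate numbers, dye, array scaling, centring and weights, probes, the threshold and variance moderation. Further fits each omitted 1 pool with its arrays. Pool levels were solved from the closed loop. Precision is limited by the number of arrays.

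Replicate numbers were not taken as pairs across the diets, because the sources do not say that they mark shared batches. Deviations of same-numbered pools of 1 sex on both diets had correlations of 0.21, 0.27, -0.12 and 0.18. Those of both sexes from 1 tank had -0.13 and 0.03 on 0% maize and -0.01 and -0.30 on 25% maize. These values are too few to decide whether the numbers pair the pools. Named genes are those past the threshold in any contrast, the smallest p and the highest and lowest change in each class, their paralogs, all genes of classes of up to 6, and up to 4 genes per list. The 8 genes high in 1 male pool, eif2s1b among them, were chosen after their values were seen. Members, classes and lists were chosen with earlier results of these data known. Sequences and coordinates were not used here, so a planned promoter description was not made. Figures were drawn with matplotlib.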

Additional observations from a re-analysis of the deposited data

How the results depend on the processing

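For the diets independent of sex, the 8 calls became 26 where arrays were taken as independent, beside 17.1% of all genes. They were 0 with the variance between pools on the tanks or with arrays scaled to 1 spread, as over all genes. At an adjusted p under 0.01 they were 3, and 14 under 0.1. The share of all genes at these thresholds is not given here, so these counts cannot be set against it. With 1 pool left out they ranged from 2 to 13, beside 1.3% to 8.11% of all genes. With the replicate number as a block they were 7, and those for the sexes were 67, beside 3.31% and 67.6% of all genes. Within females the 0 calls became 3 with scaling and 2 with array weights, beside 10.7% and 2.03% of all genes. They were 3 at an adjusted p under 0.1, again with no share of all genes beside the count. With 1 pool left out they ranged from 0 to 2, beside 0% to 5.58% of all genes. Within males they became 18 with scaling (4 higher and 14 lower) and 1 with the replicate block, beside 24% and 0.0598% of all genes. With 1 pool left out they ranged from 0 to 1, beside 0% to 0.165% of all genes. For the difference of the diet effects they became 13 with scaling, 1 with the variance on the tanks and 1 with the replicate block. Of all genes these settings called 27.6%, 2.33% and 0.0598%. With 1 pool left out the calls ranged from 0 to 1, beside 0% to 0.0898% of all genes. Scaling multiplied the single array of 2 male pools by 2.40 and that of 2 female pools by 1.57. The cause of the shifts, and the part of these factors in them, was not tested. For the sexes the 69 calls ranged from 63 to 69 with 1 pool left out, beside 63.5% to 74% of all genes. They were 51 with the tank as a block, beside 63.1% of all genes. The difference of eif2s1b between the sexes reversed to -0.28 with the variance on the tanks. With 3 pools a group, precision is limited by the number of arrays.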
